A study of Mus musculus with 15 samples.

Results

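The miRNAs of mouse liver allografts on day 14 after transplantation were compared with those of syngeneic liver grafts on day 5. The comparison used 6 of the 15 arrays of the series, chosen by their titles: 3 of allogeneic grafts on day 14 and 3 of syngeneic grafts on day 5, each from 1 male mouse. In the allografts, a B10.BR (H2-Kk) liver was placed in a B10.D2 (H2-Kd) recipient, a pair that differs at the major histocompatibility complex, and no immunosuppressant was given. The labels name this same allogeneic strain pair for the syngeneic arrays, so only their titles mark them as syngeneic, and the strain of their donors and recipients is not known here. The age of the mice was not stated in the sources used here. Both groups carried a transplanted liver, and they differed in the day of sampling as well as in the match of donor and recipient. The allogeneic response and the day after surgery therefore cannot be told apart in these values.

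MiRNAs are short RNAs that guide Argonaute proteins to messenger RNAs, chiefly by pairing of the seed, the bases near their 5′ end, and so lower the output of the messages they pair with. MiRNAs that share a seed can pair with many of the same messages. In the liver, hepatocytes are known for miR-122 and for the pair miR-192 and miR-194, whereas miR-142, miR-223, miR-155 and miR-342 are known from leukocytes. Whole pieces of graft were measured, so that fewer cells of a type and less RNA per cell cannot be told apart.

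The array carried probes for 567 mouse miRNAs, all of which belong to the comparison. Detection required that a share of 0.5 or more of a probe's spots stood well above background, for any probe of the miRNA. By this measure the arrays detected 79, 71 and 102 miRNAs in the syngeneic grafts and 112, 98 and 115 in the day 14 allografts. For scaling, the signals of an array were divided by the 75th percentile of 52 miRNAs, those that all 15 arrays detected. This divisor ranged over 395 to 616 intensity units for syngeneic arrays and 750 to 1018 for day 14 arrays. Lower scaled values were then set to 0.0270, the floor (-5.21 on the log2 scale). All levels given here are log2 scaled signals, and levels of different miRNAs were not compared because they rest on different probes. Testing was by limma, in a fit of the whole series, for the 103 miRNAs that every array of some group detected. Of the 464 that were not tested, 439 were detected on none of the 6 arrays compared. Log2 fold changes are day 14 minus syngeneic, and a miRNA was called at a Benjamini-Hochberg adjusted p under 0.05. All adjusted p-values below are from this limma test unless named otherwise. The arrays of day 14 and syngeneic replicates 1 and 2 lay on 1 slide, and syngeneic replicate 3 lay on a second one.

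The sequences of the miRNAs that differed most are shown first, as mature RNAs from RefSeq (build GRCm38.p6), 5′ to 3′ with the seed (bases 2 to 8) in capitals. Of the 103 tested miRNAs, 89 were matched to this table, and so were 45 of the 47 that were called. MiR-720 and miR-122 were not matched. The 6 largest rises had 6 different seeds:
miR-342-3p: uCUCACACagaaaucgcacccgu
miR-223: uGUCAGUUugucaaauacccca
miR-188-5p: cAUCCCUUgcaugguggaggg
miR-15b: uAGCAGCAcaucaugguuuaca
miR-142-5p: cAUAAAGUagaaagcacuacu
miR-155: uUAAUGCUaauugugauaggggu

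MiR-342-3p is encoded at chr12:108658620-108658718 (+ strand), within the annotated span of Evl, and miR-223 at chrX:96242817-96242926 (+ strand). The miR-15b hairpin lies at chr3:69009772-69009835 (+ strand) within Smc4, and that of miR-155 at chr16:84714140-84714204 (+ strand) outside the annotated genes searched. Of the 6 largest falls, 5 were matched and are shown next. The RefSeq entry of miR-101b starts 1 base before that of miR-101a, so that the capitals of these relatives are offset by that base.
miR-101b: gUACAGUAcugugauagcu
miR-101a: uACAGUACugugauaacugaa
miR-212: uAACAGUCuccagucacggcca
miR-33: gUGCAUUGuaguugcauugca
miR-148a: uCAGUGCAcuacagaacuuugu

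MiR-101b is encoded at chr19:29135279-29135375 (+ strand) within Rcl1, and miR-101a at chr4:101346945-101347027 (- strand). MiR-33 lies at chr15:82198122-82198190 (+ strand) within Srebf2, the gene of a regulator of cholesterol synthesis, and miR-148a at chr6:51269812-51269910 (- strand).

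In some families a part of the members was called, and their sequences are given so that they can be compared. Differences between members were not tested. Of all tested miRNAs, 27.2% were called higher and 18.4% lower. In the miR-15/16 family, which shares the seed AGCAGCA with miR-15b above, 4 of the 6 members rose:
miR-322: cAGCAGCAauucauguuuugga
miR-16: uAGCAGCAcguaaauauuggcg
miR-15a: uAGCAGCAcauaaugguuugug
miR-497: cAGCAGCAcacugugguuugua
miR-195: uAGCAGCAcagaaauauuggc

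The following pairs and trios hold near relatives of which 1 or more were called and others were not, or, for let-7, were called in opposite directions:
miR-27a: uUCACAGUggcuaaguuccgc
miR-27b: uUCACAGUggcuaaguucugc
miR-29a: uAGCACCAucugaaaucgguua
miR-29b: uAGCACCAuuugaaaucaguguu
miR-29c: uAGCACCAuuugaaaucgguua
miR-26a: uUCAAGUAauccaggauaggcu
miR-26b: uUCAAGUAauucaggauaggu
let-7i: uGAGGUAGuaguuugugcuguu
let-7g: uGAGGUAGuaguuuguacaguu
let-7f: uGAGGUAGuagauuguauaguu

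MiR-27a and miR-27b are 1 edit apart, as are miR-29a and miR-29c, and miR-26a and miR-26b are 2 edits apart. Among the matched miRNAs, 22 pairs lay within 2 edits of each other. Signal of a near-identical relative on a probe was not tested, so the values of such pairs are less certain than those of miRNAs without close relatives.

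Day 14 allografts differed from the syngeneic grafts in 47 of the 103 tested miRNAs (45.6%), of which 28 were higher (27.2%) and 19 lower (18.4%). All 6 tested leukocyte markers and 5 of 6 tested miRNAs of injury and inflammation were among the rises, and all 5 tested hepatocyte markers among the falls. A miRNA could be tested on its detection in allografts alone, so the filter could favor rises. All day 14 and no syngeneic arrays detected 8 miRNAs, and the reverse held for 0. The lowest detected signals were -4.76, -4.47 and -5.35 on the syngeneic arrays and -5.55, -5.20 and -5.79 on day 14. Detection thus reached less far down on syngeneic replicates 1 and 2, and the part of this in the detection counts was not tested. Among the 52 miRNAs detected on all 15 arrays, 12 were called higher and 19 lower. The largest rise was that of miR-342-3p, 16.5-fold, and the next were miR-223 (5.21-fold) and miR-15b (4.87-fold), apart from miR-188-5p, for which only a bound can be given. With normexp background correction their log2 fold changes stayed called but were smaller. They were 1.76 in place of 4.04 for miR-342-3p, 1.57 in place of 2.38 for miR-223 and 1.28 in place of 2.28 for miR-15b. This setting also added an offset of 50, so all values given for normexp are not those of background correction alone. The part of the offset in the smaller values was not tested. At least 3-fold differences were called for 10 miRNAs, 7 higher and 3 lower. The arrays of the 2 groups did not overlap for 56 miRNAs (54.4%), of which 34 were higher (33.0%) and 22 lower (21.4%). Of the 47 called, 44 did not overlap. The exceptions were miR-193, miR-30c and miR-20b. The median log2 fold change over all tested miRNAs was 0.07 and the median standard error was 0.24.

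**Figure D1:**
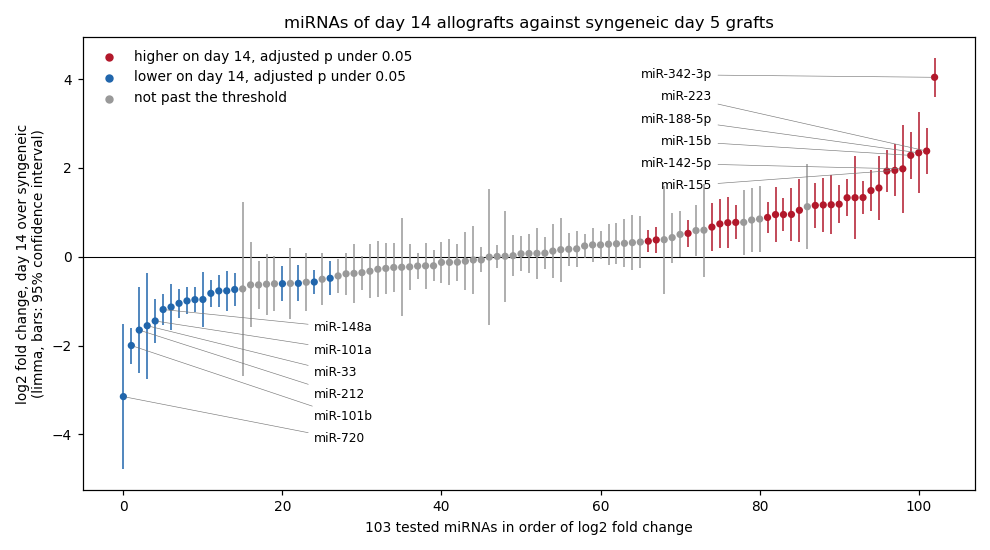
Log2 fold change of day 14 allografts over syngeneic day 5 grafts for the 103 tested miRNAs in ascending order, with 95% confidence intervals from limma. The 28 called rises (red) reach 4.04 for miR-342-3p, and the 19 called falls (blue) reach -3.15 for miR-720, whose interval is the widest among the named miRNAs.

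These counts rested in part on the scaling. Without scaling, the median log2 fold change was 0.71 in place of 0.07, and limma called 45 miRNAs higher and 3 lower, against 28 and 19 with scaling. All differences are therefore relative to the bulk of the detected miRNAs of each array. With the slide as a block, 49 were called (32 higher and 17 lower), and 43 of the 47 were among them. Because syngeneic replicate 3 alone links the slides, this fit gives the same log2 fold changes as leaving that array out. Of the 47 called miRNAs, 33 kept their call without any 1 of the 6 arrays compared, and the lowest count was 37, without day 14 replicate 1.

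MiRNAs of leukocytes rose. Of the 9 markers listed, 6 were tested and all 6 were called higher, where 27.2% of all tested miRNAs were. Their median log2 fold change was 1.96 against 0.07 over all tested miRNAs. MiR-342-3p, miR-142-5p and miR-155 were not detected on every syngeneic array, and so were tested only through the allografts. MiR-342-3p, a miRNA of lymphoid and myeloid cells, stood at the floor on 2 syngeneic arrays and at -4.75 on the third, and at -0.78, -1.27 and -0.99 on the day 14 arrays. It was detected on 1 of the 3 syngeneic arrays and on all 3 of day 14, and the groups lay far apart (log2 fold change 4.04 ± 0.20 (SE), adjusted p = 4.16e-09). Values set to the floor are equal, so this standard error and p-value leave out the spread below it. MiR-223, which is known from neutrophils and other myeloid cells, measured -3.06, -2.66 and -2.12 in the syngeneic grafts and -0.00, -0.31 and -0.38 on day 14. Its groups were separated by more than either group's spread (2.38 ± 0.24, adjusted p = 7.89e-06).

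The hairpin of miR-142 gives a miRNA from each arm, and both are made throughout the blood lineage. The 5p arm measured -5.21, -3.47 and -4.35 in the syngeneic grafts and -2.47, -2.28 and -2.33 on day 14 (1.98 ± 0.46, adjusted p = 0.00326). The 3p arm measured -1.04, 0.54 and -0.35 and then 1.05, 1.44 and 0.65 (1.33 ± 0.43, adjusted p = 0.0224). In both arms syngeneic replicate 2 was the highest syngeneic array, and for the 3p arm it came close to the lowest day 14 array. The call of the 3p arm was lost without syngeneic replicate 1 or 3 or day 14 replicate 1 or 2 (adjusted p = 0.0527 to 0.0926), and with a block for the slide (adjusted p = 0.0527).

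MiR-155 and miR-146a are induced by NF-κB signalling and act in inflammatory and lymphoid responses. MiR-155 was not well above background on any syngeneic array, and on day 14 it measured -2.69, -3.17 and -3.92, so that it was at least 2.93-fold higher (adjusted p = 7.87e-05). Such bounds set the mean of the brighter group against a limit for each dim array. That limit was the lowest detected signal of the array or the miRNA's own signal, whichever was higher. The bounds allow for dim signal only, and not for the spread between arrays or the choice of processing. For miR-155 the fitted log2 fold change was 1.95, with a limma confidence interval of 1.36 to 2.53. Under the alternatives in processing and samples given below it was 0.65 to 3.95. MiR-146a measured -3.94, -3.91 and -3.75 in the syngeneic grafts and -2.14, -2.36 and -2.63 on day 14 (1.49 ± 0.21, adjusted p = 8.15e-05). The syngeneic arrays lay close together for miR-146a and the groups did not overlap. Of the other leukocyte markers, miR-150, a miRNA of mature lymphocytes, and miR-342-5p were detected on none of the 15 arrays, and miR-146b was detected on 2 day 14 arrays only.

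The summed scaled signal of the 9 leukocyte markers, on the linear scale, was 0.833 to 1.90 in the syngeneic grafts and 3.34 to 4.53 on day 14. Such a sum weighs the brightest probes most. The sum of the 6 hepatocyte markers moved the other way, from 30.6 to 36.5 in the syngeneic grafts to 13.7 to 17.6 on day 14. The part that a change in cell types plays in the other differences was not tested.

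**Figure D2:**
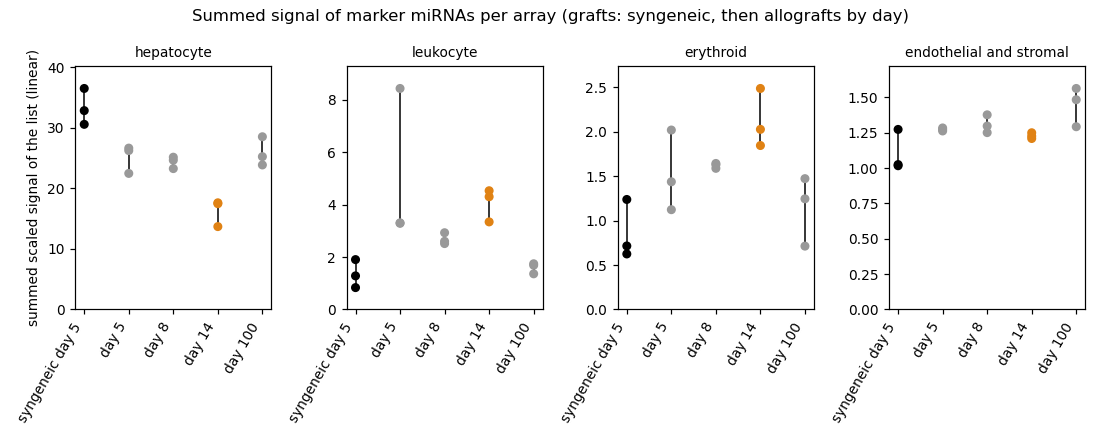
Summed scaled signal (linear) of 4 lists of marker miRNAs, 1 point per array with a line over the range of each group of 3: syngeneic grafts (black), day 14 allografts (orange) and the allografts of the other days (grey). On day 14 the hepatocyte sum (13.7 to 17.6) lay below, and the leukocyte and erythroid sums above, all syngeneic arrays, while the endothelial and stromal sum (1.21 to 1.25) lay inside the syngeneic range.

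Of the 3 erythroid markers, 2 were tested and 1 rose, where 27.2% of all tested miRNAs were called higher. MiR-451, which is processed in red cell precursors without Dicer, measured 0.16, -1.18 and -0.69 in the syngeneic grafts and 0.95, 0.78 and 1.21 on day 14 (1.55 ± 0.34, adjusted p = 0.00232). MiR-144, encoded next to miR-451 on chromosome 11, measured -3.38, -2.69 and -3.91 and then -3.79, -3.30 and -2.85. Its groups overlapped throughout (log2 fold change 0.01, 95% confidence interval -1.01 to 1.03), and its probes moved in different directions. The third marker, miR-486, was detected on 1 day 14 array.

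Of the 9 miRNAs listed for injury and inflammation, 6 were tested and 5 rose: miR-155 and miR-146a above, miR-34a, miR-210 and miR-221. Of all tested miRNAs, 27.2% were called higher, and miR-155, miR-210 and miR-221 were tested only through the allografts. The list's median log2 fold change was 1.06. MiR-34a, which p53 induces, measured -4.32, -3.53 and -3.49 in the syngeneic grafts and -2.93, -2.89 and -2.65 on day 14 (0.95 ± 0.28, adjusted p = 0.0138). Syngeneic replicate 1 was the lowest array, and without it the call was lost (log2 fold change 0.68, adjusted p = 0.0568). MiR-210, which is induced by hypoxia, was not well above background on any syngeneic array and was at least 1.71-fold higher on day 14 (adjusted p = 0.00414). Its day 14 arrays were wide apart, at -3.41, -3.89 and -4.82. The fitted log2 fold change had a limma confidence interval of 0.56 to 1.78, and was 0.38 to 2.71 under the alternatives.

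MiR-221, a miRNA linked to proliferation, differed by 0.95 ± 0.29 (adjusted p = 0.0167). Its call was lost without syngeneic replicate 2 or day 14 replicate 1 (adjusted p = 0.0619 and 0.0767). MiR-21, the most studied miRNA of liver injury and fibrosis, was not called. It measured 4.31, 4.77 and 5.23 in the syngeneic grafts and 4.85, 4.98 and 4.55 on day 14. The day 14 values lay inside the syngeneic range (0.02, 95% confidence interval -0.44 to 0.49), and its probes moved in different directions. It passed the test with quantile normalization (0.77) and with normexp background correction (1.04).

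The miR-15/16 family, known for holding back cell cycle genes, held 4 called rises among its 6 tested members. Of all tested miRNAs, 27.2% were called higher. MiR-15b measured -3.11, -3.89 and -2.81 in the syngeneic grafts and -0.82, -1.03 and -1.11 on day 14 (2.28 ± 0.25, adjusted p = 1.13e-05). Its neighbor in Smc4, miR-16, rose from -2.06, -2.25 and -1.73 to -1.02, -1.26 and -1.09 (0.89 ± 0.16, adjusted p = 0.0005). MiR-16 is also encoded beside miR-15a on chromosome 14, and the array cannot tell its copies apart. MiR-15a itself differed by 0.38 ± 0.13 (adjusted p = 0.03), a call lost without syngeneic replicate 1 or day 14 replicate 1 or 2 (adjusted p = 0.0809 to 0.137). MiR-322, encoded on the X chromosome and the mouse form of miR-424, measured -5.18, -5.21 and -4.57 and then -3.79, -3.86 and -3.31 (1.33 ± 0.19, adjusted p = 8.15e-05). Its groups were well separated, although only 1 syngeneic array detected it and it was tested only through the allografts.

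The remaining members, miR-195 and miR-497, are encoded together on chromosome 11. They had log2 fold changes of -0.32 (95% confidence interval -0.94 to 0.29) and -0.28 (-0.92 to 0.36). Both were dim, with 1 syngeneic array detecting each. Whether they differed in response from the 4 that rose was not tested.

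**Figure D3:**
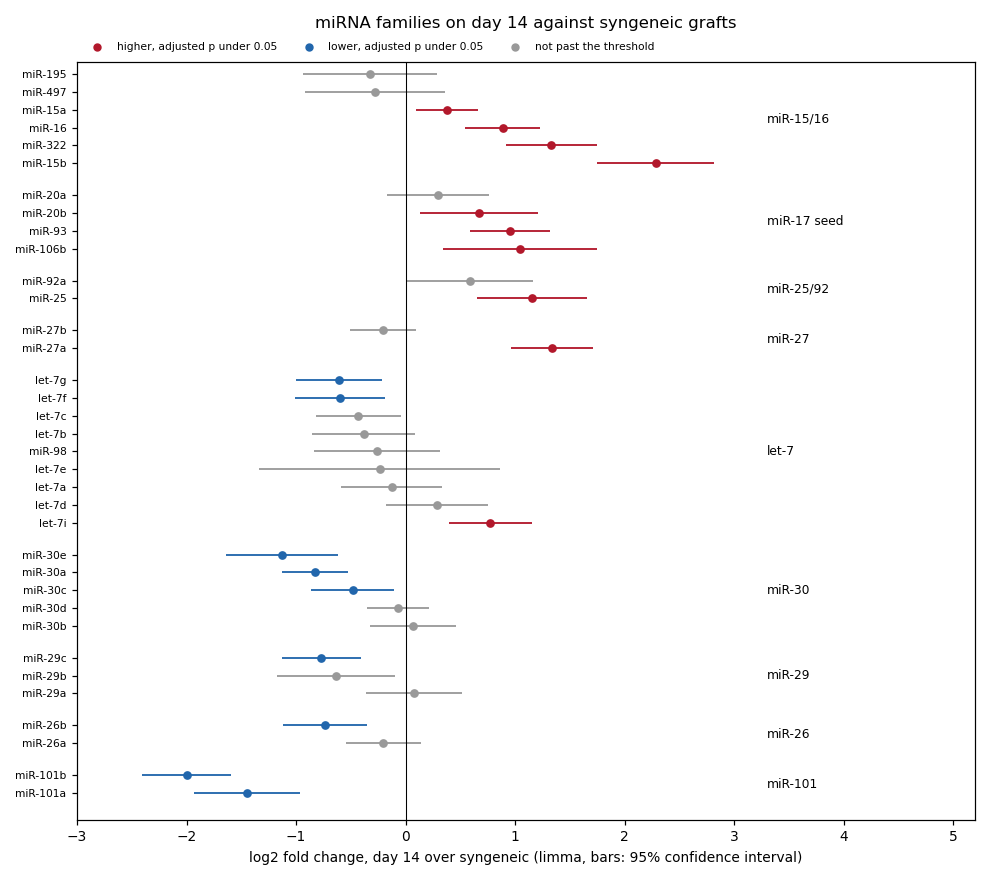
Log2 fold change of day 14 over syngeneic grafts for the tested members of 9 miRNA families, with 95% confidence intervals from limma. MiR-15b, miR-322, miR-16 and miR-15a lie above 0 and miR-195 and miR-497 are not called, while in the let-7 family let-7i is higher and let-7f and let-7g are lower.

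The cluster from miR-17 to miR-92a and its paralogs are known for driving proliferation and lymphocyte growth. Of 12 members, 8 were tested and 4 rose, where 27.2% of all tested miRNAs were called higher. Among the rises, miR-25, miR-93 and miR-20b were not detected on every syngeneic array, and so were tested only through the allografts. MiR-25, miR-93 and miR-106b lie together in Mcm7, the gene of a replication factor, at chr5:138165321-138165818 (- strand), and all rose. MiR-25 went from -4.84, -5.21 and -4.36 to -3.49, -3.75 and -3.70 (1.16 ± 0.23, adjusted p = 0.00126). MiR-93 went from -5.21, -5.21 and -5.06 to -3.93, -4.25 and -4.45 (0.95 ± 0.17, adjusted p = 0.0005). Both were at or near the floor in the syngeneic grafts, where 1 array detected each.

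MiR-106b differed by 1.05 ± 0.33 (adjusted p = 0.0184). Its call was lost without syngeneic replicate 1 or 2 or day 14 replicate 1 (adjusted p = 0.0501 to 0.0692). MiR-20b, from the paralog on the X chromosome, differed by 0.67 ± 0.25 (adjusted p = 0.04) with overlapping arrays, and its call was lost without syngeneic replicate 1 or 2 or day 14 replicate 1 or 2 (adjusted p = 0.0953 to 0.156). From the miR-17 locus, miR-20a (0.29), miR-92a (0.59), miR-19a (-0.37) and miR-19b (-0.20) were not called. With a block for the slide miR-92a was called higher (0.80, adjusted p = 0.0337). The passenger strand miR-17* of the same locus was called (adjusted p = 0.0259) but stood at the floor in the syngeneic grafts and at -4.73, -4.84 and -5.00 on day 14, too dim for a fold. That call was lost without syngeneic replicate 1 or day 14 replicate 1 or 2 (adjusted p = 0.0562 to 0.095).

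The miR-23a, miR-27a and miR-24 cluster on chromosome 8 rose as a whole, and the members read only from its paralog on chromosome 13 were not called. MiR-23a measured -1.38, -1.86 and -1.003 in the syngeneic grafts and 0.01, -0.34 and -0.36 on day 14 (1.19 ± 0.20, adjusted p = 0.000337). MiR-27a measured -2.16, -2.05 and -1.61 and then -0.32, -0.64 and -0.85 (1.33 ± 0.17, adjusted p = 5.65e-05). For both, the lowest day 14 array lay above the highest syngeneic array, at -0.36 against -1.003 for miR-23a and -0.85 against -1.61 for miR-27a. MiR-24, encoded in both clusters, differed by 0.53 ± 0.14 (adjusted p = 0.00914). MiR-27b, 1 edit from miR-27a, measured -2.34, -2.46 and -2.12 and then -2.52, -2.46 and -2.56 (log2 fold change -0.21, 95% confidence interval -0.51 to 0.09). MiR-23b had a log2 fold change of 0.17 (-0.20 to 0.54).

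Further rises were seen outside these lists. MiR-652, encoded within Tmem164 on the X chromosome, measured -4.60, -5.21 and -4.51 in the syngeneic grafts and -2.66, -2.96 and -2.91 on day 14 (1.93 ± 0.22, adjusted p = 1.41e-05). MiR-188-5p was not well above background on any syngeneic array. On day 14 it measured -2.00, -2.01 and -2.44, at least 4.57-fold higher (adjusted p = 0.0005). The fitted log2 fold change had a limma confidence interval of 1.43 to 3.25, and was 0.52 to 2.93 under the alternatives. MiR-140*, the passenger strand of a miRNA in Wwp2, went from -4.71, -5.21 and -4.38 to -3.36, -3.81 and -3.61 (1.17 ± 0.31, adjusted p = 0.0076). Its partner strand miR-140 had a log2 fold change of 0.33 and was not called.

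MiR-139-5p, a miRNA encoded in Pde2a, was higher by 0.77 ± 0.27 (adjusted p = 0.03), and lost its call without syngeneic replicate 1 or day 14 replicate 3 (adjusted p = 0.113 and 0.125). MiR-350 was not well above background on any syngeneic array and was at least 1.27-fold higher (adjusted p = 0.03). The fitted log2 fold change had a limma confidence interval of 0.19 to 1.29, and was 0.22 to 2.02 under the alternatives. Its call was lost without any 1 syngeneic array or without day 14 replicate 1 or 3 (adjusted p = 0.0568 to 0.121), and with a block for the slide (adjusted p = 0.0571).

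**Figure D4:**
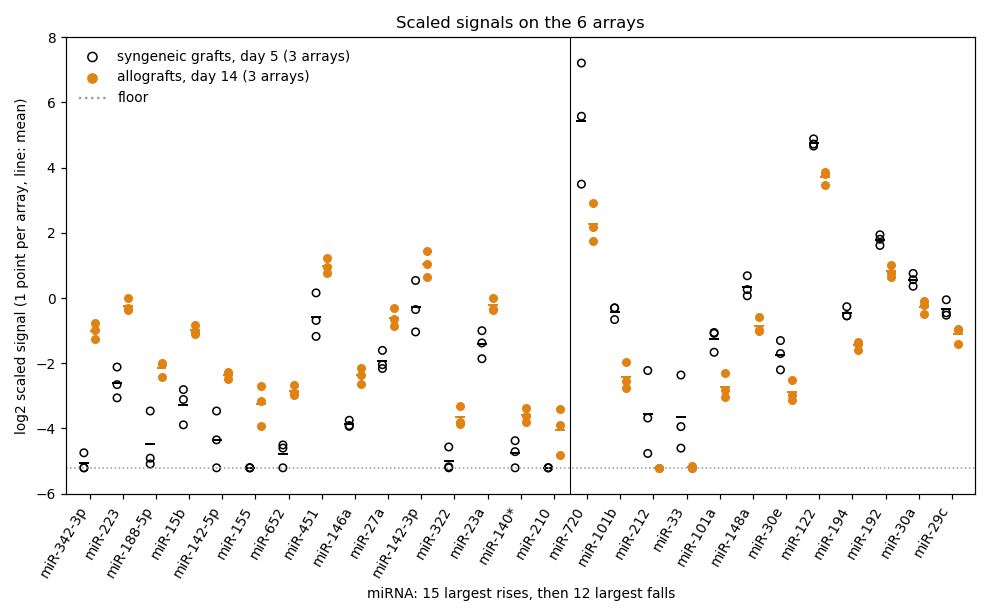
Log2 scaled signal on each of the 6 arrays for the 15 largest rises and the 12 largest falls among called miRNAs whose arrays did not overlap, with the mean of each group as a line and the floor of -5.21 dotted. Open points are syngeneic grafts and orange points are day 14 allografts, and miR-155 and miR-210 lie at the floor on all syngeneic arrays.

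Hepatocyte miRNAs fell. Of the 6 markers listed, 5 were tested and all 5 were called lower, where 18.4% of all tested miRNAs were. Their median log2 fold change was -0.99. MiR-122, the most abundant and most specific hepatocyte miRNA and a regulator of lipid metabolism, measured 4.66, 4.72 and 4.88 in the syngeneic grafts and 3.45, 3.81 and 3.86 on day 14. Its fall of 2.07-fold was larger than the spread of either group (-1.05 ± 0.15, adjusted p = 7.87e-05). It was detected on all 6 arrays, which checks the labelled tissue. With quantile normalization its log2 fold change was 0.31, and the call was also lost without scaling (-0.27) and with normexp background correction (-0.04).

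MiR-192 and miR-194 are encoded together on chromosome 19 and are known from hepatocytes and gut epithelium. MiR-192 measured 1.61, 1.80 and 1.94 in the syngeneic grafts and 0.66, 1.02 and 0.78 on day 14 (-0.97 ± 0.13, adjusted p = 7.87e-05). MiR-194 measured -0.55, -0.55 and -0.27 and then -1.59, -1.35 and -1.40 (-0.99 ± 0.14, adjusted p = 7.87e-05). The neighbors fell by nearly the same amount. MiR-148a, which is known to repress DNA methyltransferase 1 and to act in hepatocyte differentiation, measured 0.07, 0.26 and 0.68 and then -1.01, -0.57 and -0.97 (-1.19 ± 0.16, adjusted p = 7.87e-05). MiR-193 differed by -0.96 ± 0.29 (adjusted p = 0.0148) with arrays that overlapped by a narrow margin. Its call was lost without syngeneic replicate 2 or day 14 replicate 1 (adjusted p = 0.0619 and 0.0678) and within the first slide (adjusted p = 0.0618). The last marker, miR-802, was detected on none of the 6 arrays. Without scaling, none of the 5 was called, although their median log2 fold change was -0.22 where that of all tested miRNAs was 0.71.

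MiR-101a and miR-101b, which repress the histone methyltransferase Ezh2, both fell. MiR-101b measured -0.66, -0.31 and -0.30 in the syngeneic grafts and -2.75, -1.97 and -2.55 on day 14, a fall of 3.99-fold (-2.00 ± 0.19, adjusted p = 4.41e-06). MiR-101a measured -1.67, -1.09 and -1.06 and then -3.03, -2.30 and -2.81 (-1.45 ± 0.22, adjusted p = 0.000164). Day 14 replicate 2 was the highest of its group for both, and still lay below every syngeneic array. MiR-101b was called lower under all 34 alternatives tried, and miR-101a under 33, the exception being no scaling (-0.67, adjusted p = 0.107).

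In the miR-30 family, which is abundant in epithelia and opposes epithelial to mesenchymal change, 3 of 5 members fell. Of all tested miRNAs, 18.4% were called lower. MiR-30e measured -2.20, -1.31 and -1.70 in the syngeneic grafts and -3.13, -2.51 and -2.97 on day 14 (-1.13 ± 0.24, adjusted p = 0.00171). MiR-30a measured 0.36, 0.56 and 0.75 and then -0.48, -0.09 and -0.22 (-0.82 ± 0.14, adjusted p = 0.000337). These are 1 edit apart. MiR-30c differed by -0.48 ± 0.18 (adjusted p = 0.0381) with overlapping arrays. Its call was lost without syngeneic replicate 1 or 3 or day 14 replicate 1 or 2 (adjusted p = 0.0757 to 0.144) and with a block for the slide (adjusted p = 0.0913), and its sign turned without scaling. MiR-30b (0.07) and miR-30d (-0.07) did not pass the test, with 95% confidence intervals of -0.32 to 0.46 and -0.35 to 0.21. The passenger strands miR-30a* (-0.61) and miR-30e* (-0.62) lay below the syngeneic arrays on all day 14 arrays but were not called (adjusted p = 0.103 and 0.13).

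The miR-29 family represses collagen genes. MiR-29c measured -0.53, -0.45 and -0.05 in the syngeneic grafts and -1.42, -0.94 and -0.98 on day 14 (-0.77 ± 0.17, adjusted p = 0.00235). MiR-29b, encoded beside miR-29c on chromosome 1 and beside miR-29a on chromosome 6, had a log2 fold change of -0.63 and did not pass (adjusted p = 0.0526). MiR-29a had one of 0.07 (95% confidence interval -0.36 to 0.51), with day 14 arrays inside the syngeneic range. Without scaling, miR-29c had a log2 fold change of 0.01.

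MiR-26b, which lies in Ctdsp1, measured -0.82, -0.97 and -0.37 in the syngeneic grafts and -1.42, -1.25 and -1.70 on day 14 (-0.74 ± 0.18, adjusted p = 0.00411). Its relative miR-26a, 2 edits apart, had a log2 fold change of -0.20 (95% confidence interval -0.55 to 0.14). Without scaling the value of miR-26b was 0.04.

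The let-7 family, known for holding back growth genes, held calls in both directions, as no other of the 12 seed families with 2 or more matched members did. Let-7i rose from -2.27, -2.41 and -1.74 to -1.25, -1.28 and -1.56 (0.78 ± 0.18, adjusted p = 0.00301). Let-7g fell from -0.02, -0.18 and 0.49 to -0.54, -0.26 and -0.74 (-0.61 ± 0.18, adjusted p = 0.0148). Let-7f fell from 1.08, 0.81 and 1.56 to 0.59, 0.73 and 0.35 (-0.60 ± 0.19, adjusted p = 0.0193). In both falls the groups did not overlap, but the gap between them was narrow.

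The calls of let-7g and let-7f were lost without day 14 replicate 3 (adjusted p = 0.0635 and 0.0722). That of let-7f was also lost without syngeneic replicate 3 and with a block for the slide (adjusted p = 0.0676 in both). Without scaling the signs of both turned. The rise of let-7i was called under 32 of 34 alternatives, the exceptions being the 75th percentile over all mouse miRNAs and the methods' t-test after adjustment. The other 6 members had log2 fold changes of -0.43 (let-7c) to 0.28 (let-7d) and were not called. With a block for the slide let-7d was called higher (0.52, adjusted p = 0.0461).

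MiR-720 had the largest fall, with a wide spread. This array entry is known from other work as a likely tRNA fragment. It measured 3.49, 7.21 and 5.58 in the syngeneic grafts and 1.76, 2.90 and 2.17 on day 14 (-3.15 ± 0.76, adjusted p = 0.00411). The syngeneic arrays lay far apart and did not overlap with those of day 14. MiR-212 measured -4.77, -2.23 and -3.68 in the syngeneic grafts, where 2 of 3 arrays detected it, and was not well above background on any day 14 array. It was at least 3.13-fold lower (adjusted p = 0.00832). The fitted log2 fold change had a limma confidence interval of -2.61 to -0.69, and was -3.16 to -0.64 under the alternatives. Without syngeneic replicate 2 its fitted log2 fold change was -0.98 in place of -1.65, and the call was lost with no filter on detection, with only the groups compared and by the methods' t-test. MiR-33, which lowers cholesterol export, fell from -4.61, -2.36 and -3.94 to -5.21, -5.15 and -5.21 (-1.55 ± 0.55, adjusted p = 0.0342). Its call was lost without syngeneic replicate 2 (log2 fold change -0.91, adjusted p = 0.151) or without any 1 day 14 array (adjusted p = 0.0722 to 0.0854). In all of these miRNAs syngeneic replicate 2 was the highest array and replicate 1 the lowest.

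MiR-22 and miR-365 were also called lower. MiR-22, an abundant liver miRNA, went from 3.01, 2.79 and 3.12 to 2.39, 2.42 and 2.40 (-0.57 ± 0.12, adjusted p = 0.00235), and its sign turned with quantile normalization, without scaling and with normexp background correction. MiR-365 went from -2.25, -3.02 and -2.10 to -3.26, -3.19 and -3.22 (-0.77 ± 0.21, adjusted p = 0.00832). Within the first slide its adjusted p was 0.0543.

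Endothelial and stromal markers did not pass the test. Of 8 listed, 3 were tested: miR-126-3p of endothelium (0.24, 95% confidence interval -0.02 to 0.51), miR-199b of stellate cells (-0.10, -0.75 to 0.55) and miR-214 (0.32, -0.30 to 0.94). With the slide as a block, 1 of them, miR-126-3p, was called higher. None of the 5 biliary markers was tested, and their summed signal stayed at 0.135 to 0.163 in the syngeneic grafts and 0.135 to 0.162 on day 14, near the floor. MiR-99a (-0.23) and miR-125b-5p (-0.13), the tested members of the miR-99/100 and miR-125 families, were not called. Of the 114 passenger strands on the array, 5 were tested and 2 were called, both higher, where 45.6% of all tested miRNAs were called. Both were tested only through the allografts. The 10 miRNAs named by the study were chosen on these same samples, so their calls (7 higher and 3 lower) are not independent evidence.

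MiRNAs encoded near each other were compared because they are often cut from 1 transcript. Among the matched miRNAs, 39 fell into 19 groups of hairpins on the same strand within 10 kb of the next. In no group were members called in opposite directions. In 6 groups all members were called in 1 direction: miR-142-3p and 5p, miR-15b with miR-16, miR-15a with miR-16, the Mcm7 group, the miR-23a group and miR-192 with miR-194. In 4 groups no member was called. Of all tested miRNAs, 45.6% were called (27.2% higher and 18.4% lower), and the group counts were not tested against these shares. The 19 groups share miRNAs with several copies, such as miR-16, miR-24, let-7c, let-7f and miR-92a, and are given as a description. The same value of miR-16 thus enters the groups of both miR-15a and miR-15b.

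**Figure D5:**
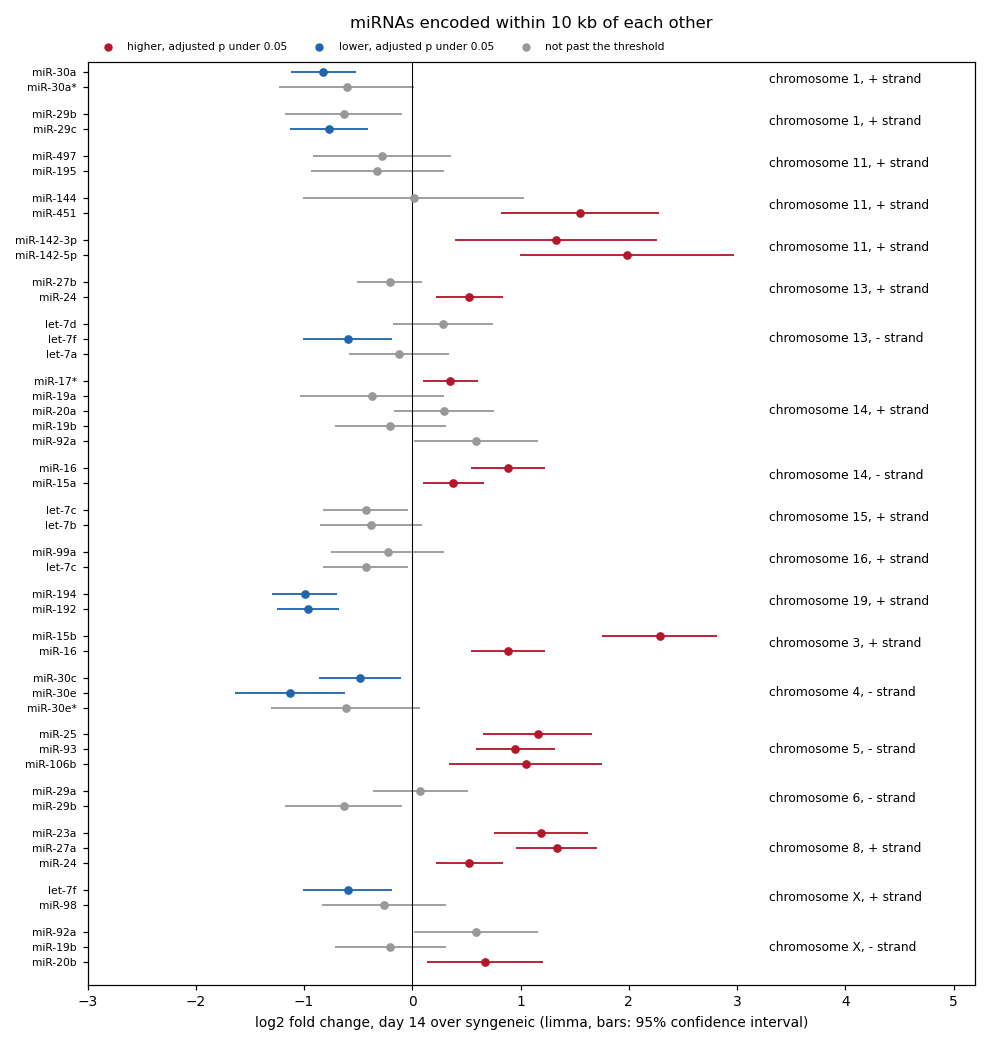
Log2 fold change of day 14 over syngeneic grafts for tested miRNAs encoded within 10 kb of each other on 1 strand, in 19 groups, with 95% confidence intervals from limma. The miR-23a group on chromosome 8 and the Mcm7 group on chromosome 5 are called higher throughout, and miR-194 and miR-192 on chromosome 19 are both called lower.

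The day 14 allografts were set against the other allograft days in the same fit, to show where day 14 differed. These differences equal the differences between the days in their fold change over the shared syngeneic arrays. Against day 8, 6 miRNAs were called (5.83%), all lower on day 14: miR-365 (-0.79), miR-101b (-0.71), miR-26b (-0.68), miR-122 (-0.63), miR-194 (-0.59) and miR-192 (-0.49), each with adjusted p = 0.0475. Days 8 and 14 lay on the same slide. None was called higher than on day 8 in this limma fit, and 22 passed an unadjusted p of 0.05 in either direction. The count was 0 without any 1 array of day 8 or day 100, without day 14 replicate 1 or 3, or without day 5 replicate 1 or 2, and 10 without syngeneic replicate 2. With the slide as a block, limma called miR-342-3p higher on day 14 than on day 8 (0.70, adjusted p = 0.0357, against 0.0628 without the block). That fit also called let-7f lower (-0.58, adjusted p = 0.0343).

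Against day 5 allografts, 13 were called (12.6%), with miR-342-3p (1.74), miR-652 (0.96) and miR-322 (0.84) higher (2.91%) and 10 lower (9.71%), led by miR-101b (-1.23). This count was 5 without day 14 replicate 1, 7 without day 5 replicate 2 and 20 without syngeneic replicate 3. Against day 100 allografts, 53 were called (51.5%), 34 higher (33.0%) and 19 lower (18.4%). Day 100 replicate 1 stood apart in the software's estimate of additive error, at 13.1 against 2.67 to 3.66 on the other arrays. It detected 60 miRNAs, the fewest of the series, and it also bore on the choice of the 52 miRNAs used for scaling. Among the miRNAs detected on 2 or more day 100 arrays, the largest rises were those of miR-342-3p (2.37), miR-1224 (2.01), miR-142-5p (1.94) and miR-223 (1.58). MiR-188-5p and miR-680 were also called higher but were not well above background on any day 100 array, and miR-155 on 1 alone. MiR-1224 and miR-680 were named after their values were seen. Days 5 and 100 lay on the other slide. With the slide as a block, the calls against day 5 were 2, miR-342-3p and miR-322, and those against day 100 were 20, all higher on day 14. Of the 4 with values above, miR-342-3p and miR-223 kept the call against day 100, and miR-1224 (adjusted p = 0.927) and miR-142-5p (adjusted p = 0.154) lost it.

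Over the syngeneic grafts, the log2 fold change of miR-342-3p was 2.30 at day 5, then 3.34 (day 8), 4.04 (day 14) and 1.67 (day 100). In the same order, that of miR-122 was -0.43, -0.42, -1.05 and -0.36, and that of miR-142-5p was 1.89, 0.56, 1.98 and 0.04. The hepatocyte sum was 22.5 to 26.6 on day 5, 23.2 to 25.1 on day 8 and 23.9 to 28.5 on day 100, all above the 13.7 to 17.6 of day 14. Among these days, day 8 alone shared the slide of day 14, and the sums hold no allowance for the slide. A limma fit that allowed for it called no tested hepatocyte marker against day 5 or day 100. For miR-122 it gave -0.43 against day 5 (adjusted p = 0.355) and -0.50 against day 100 (adjusted p = 0.197). Against day 8 it called miR-122, miR-192 and miR-194 lower (adjusted p = 0.0268, 0.0303 and 0.026), but not miR-148a or miR-193.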

How the data were processed

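Total RNA (100 ng per graft) was labelled with Cy3 and hybridised to 8 x 15K mouse miRNA arrays, 1 graft per array. The authors deposited for each array the spot intensity, background-subtracted and detrended, from Agilent Feature Extraction (version 9.5.1.1, per the file headers), with no scaling between arrays. The deposited flags for detection and outlier spots were used with them, and the deposited table of values of the whole series was not used. No pair of arrays within a group was identical, and arrays of different groups were not compared in this way.

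Here, spot intensities without control and outlier spots were averaged per probe and summed over the 1 to 4 probes of a miRNA. Arrays were divided by their 75th percentile over 52 miRNAs, raised to the floor and put on the log2 scale. The model held a mean for each of the 5 groups (15 arrays) and was fitted in R 4.3.3 using limma 3.58.1, with Benjamini-Hochberg adjustment over 103 miRNAs. Of the values tested on the 6 arrays, 8.41% lay at the floor, so fold changes of dim miRNAs depend on where it was set. The floor of -5.21 lay below the lowest detected signal of syngeneic replicates 1 and 2 (-4.76 and -4.47). Fitted fold changes of dim miRNAs can thus be too large as well as too small. Values at the floor are equal, so standard errors and p-values of such miRNAs leave out the spread below it. Other steps used Python 3.11.15, numpy 2.4.6, pandas 2.3.3, scipy 1.17.1 and matplotlib 3.10.9. The methods named Student's t-test, which served as an alternative. The fit was tested on simulated data, in which it recovered 28 of 30 miRNAs changed 3-fold among 103 and made 1 false call. The simulated noise was independent and normal, with no floor and no slide or array effects, so the result does not cover those.

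The text names the 15 largest rises and 12 largest falls among called miRNAs whose arrays did not overlap, and members of the marker and family lists. Members and lists were chosen with earlier results of these data known. Gene spans and mature sequences are from RefSeq. Each group held 3 mice, which limits the precision, and with 3 arrays against 3 an exact permutation test cannot give a two-sided p below 0.1. The labels do not tie replicate numbers to litters or days. Viral miRNAs were not tested. The alternatives were 34: other scalings, summaries of probes, background correction, filters, floor, samples, tests, the slide or replicate number as a block, and each of the 15 arrays left out.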

Additional observations from a re-analysis of the deposited data

Results flagged for a closer look

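Some differences from the syngeneic grafts were not the same on day 14 as on another day, by the test of that difference in limma. Between day 14 and day 8 this held for 6 miRNAs, by -0.71 for miR-101b, -0.63 for miR-122, -0.49 for miR-192, -0.59 for miR-194, -0.68 for miR-26b and -0.79 for miR-365 on the log2 scale, each with adjusted p = 0.0475. It held for 13 miRNAs between day 14 and day 5 and for 53 between day 14 and day 100. The day 5 and day 100 arrays lay on another slide than those of day 14, and with the slide as a block the numbers were 8 against day 8, 2 against day 5 and 20 against day 100. Groups of 3 arrays are too small to test for a sample far from the others.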

How the results depend on the processing

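For day 14 against the syngeneic grafts (47 called), the count was 31 with the 75th percentile over all mouse miRNAs (18 higher), 28 with no filter on detection (17 higher and 11 lower, 567 tested), 31 with miRNAs detected on all 15 arrays (12 higher, 52 tested) and 21 by Student's t-test, as in the methods, once adjusted (11 higher and 10 lower). Without scaling it was 48, with 45 higher and 3 lower. Under the other alternatives that left out no single array it was 38 to 55. Leaving out 1 of the 15 arrays gave 37 to 51 called, 21 to 32 higher, 16 to 21 lower and 10 to 12 at least 3-fold different. At least 3-fold differences numbered 20 without scaling, 2 with normexp, 4 with miRNAs detected on all 15 arrays and 6 with the adjusted t-test, against 10. The median log2 fold change of all tested miRNAs was 0.07, and -0.06 with quantile normalization, 0.71 without scaling and 0.23 with the slide as a block.

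Against day 8 (6 called, and 22 at an unadjusted p under 0.05), the limma count was 0 with the 75th percentile over all miRNAs, with the floor divided by 4, with no filter and with the replicate block, 2 without scaling, and 10 with normexp and with the adjusted t-test. It was 19 with only the groups compared and 34 with the unadjusted t-test. Against day 5 (13), it was 3 with the 75th percentile over all miRNAs and with no filter, 20 with median scaling, 1 without scaling, 23 with the brightest probe, 6 with the floor divided by 4, 28 and 0 with the unadjusted and adjusted t-test, and 2 with the slide as a block. Against day 100 (53), it was 33 with the 75th percentile over all miRNAs, 34 without scaling, 21 with no filter, 26 with miRNAs detected on all 15 arrays and 20 with the slide as a block. No value within the first slide was possible against days 5 and 100, whose arrays lay on the other slide. Leaving out 1 array gave 0 to 10 against day 8, 5 to 20 against day 5 and 39 to 57 against day 100. The cause was not tested, beyond the fewer or more miRNAs or arrays that some alternatives hold.

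Among 1579 values of the 47 called miRNAs under the alternatives, 1394 kept their sign and call, 175 kept the sign only and 10 changed sign. Without scaling, the log2 fold change was 0.01 for miR-29c (0.0068) and miR-365 (0.0088), 0.039 for miR-26b, 0.17 for let-7g, 0.18 for let-7f, 0.21 for miR-22 and 0.29 for miR-30c. With quantile normalization it was 0.31 for miR-122 and 0.65 for miR-22, and with normexp 0.55 for miR-22. Of 974 values of 29 list members that were not called, 48 passed the threshold under an alternative, and 69 values changed sign without a call in either setting.

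Deviations of same-numbered day 14 and syngeneic arrays correlated at 0.12, 0.45 and -0.27. Day 14 replicate 2 correlated best with syngeneic replicate 2, but replicates 1 and 3 with syngeneic replicates 3 and 1. So few values cannot show whether the numbers pair the arrays. With the replicate block, 46 miRNAs were called against the syngeneic grafts, 45 of them among the 47. Values near the floor limit what dim miRNAs can show.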
